A study of Mus musculus with 4 samples.

Results

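Runx2 occupancy was examined around 8 genes of the adipocyte programme, namely the transcription factor genes Cebpb, Cebpd, Cebpa, Pparg and Klf15 and the adipocyte product genes Fabp4, Adipoq and Lpl. A Runx2 peak was assigned to a gene when it shared at least 1 bp with the gene body of the mm9 annotation (GENCODE M1) widened by 50 kb on each side. The 8 genes, of 22360 considered, were chosen by name for their part in fat cell formation. Of the 25457 Runx2 peaks listed for day 0, 26 lay in these windows. Of the 60596 for day 9 there were 73, and of the 40330 for day 28 there were 47. When peaks that overlapped across the time points were merged, these made 75 of 67703 regions.

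Chromatin came from MC3T3-E1 subclone 4, a clonal preosteoblast line from calvaria of C57BL/6 mice, and was immunoprecipitated with the Runx2 antibody M70. Cells were taken while proliferating (day 0), during deposition of matrix (day 9) and once mineralizing (day 28), and osteogenic differentiation was induced with ascorbic acid and beta-glycerophosphate. The 2 libraries of a time point were pooled before peaks were called against input DNA from day 9 cells, so that each time point has 1 peak list. Differences between days therefore have no replicate error, none was tested, and read depth cannot be read from the lists. The cell identity rests on the label, since the peak lists hold no transcript levels.

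Osteoblasts and adipocytes arise from common mesenchymal progenitors. In the adipocyte programme the C/EBP proteins β and δ, encoded by Cebpb and Cebpd, are induced early and activate Cebpa and Pparg, which maintain each other and switch on genes of lipid uptake and storage such as Fabp4, Adipoq and Lpl. Klf15 is a zinc finger factor that acts on Pparg expression and on glucose transport in fat cells. Runx2 is required for the osteoblast lineage, and Runx proteins bind the core sequence TGTGGT.

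The sequences that carry this core differ in how they lie within the peaks, and 3 stretches are shown because they mark the contrasts described below. Each is read from the mm9 genome on the plus strand, which is the strand of both genes. In the region upstream of Adipoq, which had a peak at all 3 time points, 6 copies of TGTGGT on either strand fell within 868 bp. The stretch chr16:23144488-23144669 holds 3 of them, in capitals, with the other bases in lower case.
Adipoq upstream: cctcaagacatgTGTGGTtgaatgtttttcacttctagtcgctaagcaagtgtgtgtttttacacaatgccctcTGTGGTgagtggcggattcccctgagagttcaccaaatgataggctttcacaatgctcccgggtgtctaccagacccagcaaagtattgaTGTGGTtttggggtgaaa
Upstream of Cebpa, at 20.3 kb from the start site, the 101 bp at the centre of the day 9 peak (chr7:35883910-35884010) held 1 copy, written here as its reverse complement in capitals.
Cebpa distal: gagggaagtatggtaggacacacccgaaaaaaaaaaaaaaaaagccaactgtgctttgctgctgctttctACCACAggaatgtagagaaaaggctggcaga
The peak that covered the Cebpa start site was among the strongest of day 9. The 101 bp at the centre of this peak (chr7:35903661-35903761) held no TGTGGT. They lie 0.6 kb upstream of the start and do not include it, although the stretch is named after the start site. The stretch held 8 CpG dinucleotides, which are the capitals.
Cebpa start site: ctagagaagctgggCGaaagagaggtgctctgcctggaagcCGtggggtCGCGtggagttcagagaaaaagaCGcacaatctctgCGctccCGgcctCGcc

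Runx2 peaks lay in 6 of the 8 windows at day 0 and in all 8 at days 9 and 28. Among all protein-coding genes the shares with a peak in the same kind of window were 73.8%, 83.2% and 78.4%. The median number of peaks per window was 3.5, 7 and 6 for the 8 genes, against 2, 5 and 3 for all genes. The counts were unequal among the 8. Cebpb, Cebpa and Pparg together held 54 of the 73 day 9 peaks, whereas Fabp4 held 2 and Lpl held 1. The gene bodies themselves held 4, 8 and 7 of the peaks of days 0, 9 and 28. Such counts depend on gene length and are not given for all genes, so they cannot be called particular to the 8.

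**Figure D1:**
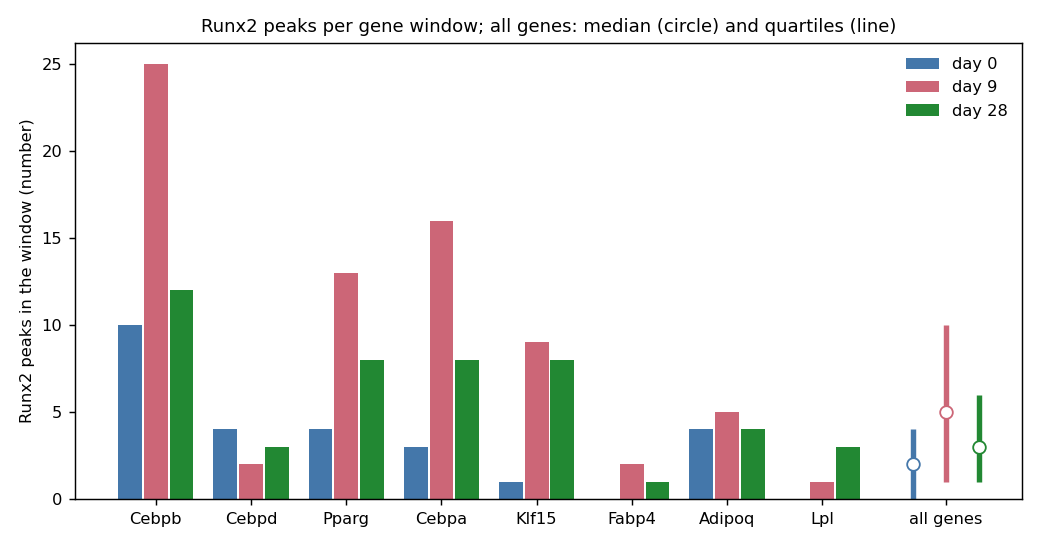
Number of Runx2 peaks (vertical axis) in the window of each gene at day 0, day 9 and day 28, beside the median and the quartiles over all protein-coding genes. Cebpb reached 25 peaks at day 9, and Fabp4 and Lpl had none at day 0.

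More peaks were listed at day 9 than at day 0 for 7 of the 8 genes, Cebpd being the exception, and 71.9% of all genes showed the same order. Fewer were listed at day 28 than at day 9 for 6 of the 8, which left out Cebpd and Lpl, against 62.8% of all genes. The size of the lists moved with these counts, since the day 9 list is the longest. When only the 25457 highest-scoring peaks of each list were kept, the 8 windows held 26, 26 and 32 peaks. On that basis 4 of the 8 genes (Pparg, Cebpa, Fabp4 and Lpl) had more peaks at day 9 than at day 0, against 29.8% of all genes, and 0 of the 8 had fewer at day 28 than at day 9, against 23.6%.

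A peak within 1 kb of a start site was found for 3, 4 and 4 of the 8 genes at days 0, 9 and 28. The background over all genes was 43.6%, 53.3% and 51.1%. The 3 genes at day 0 were Cebpb, Cebpd and Cebpa, which also had such a peak at days 9 and 28. Pparg had one at day 9 only and Klf15 at day 28 only. Only Cebpb, Cebpd and Cebpa had at their start site a region with peaks at all 3 time points, which 42.6% of all genes had. None of the 3 adipocyte product genes had a peak within 1 kb of a start site at any time point.

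**Figure D2:**
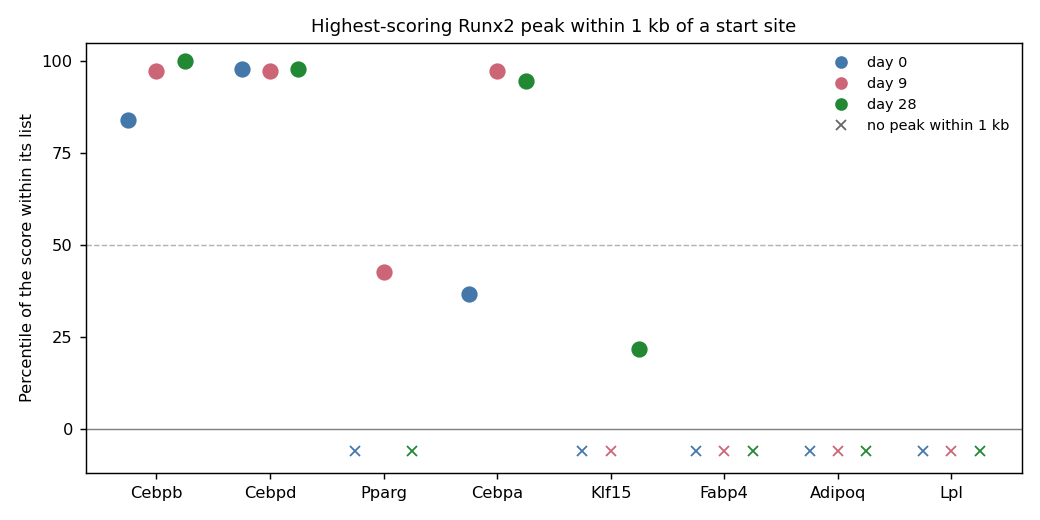
Percentile, within the list of its own day, of the score of the strongest Runx2 peak within 1 kb of a start site of each gene, where a cross marks that no such peak was listed. Cebpb and Cebpd lie at 84.0 or higher at every time point, Cebpa stands at 36.6 in the day 0 list and at 97.4 in the day 9 list, and Fabp4, Adipoq and Lpl have crosses alone.

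The window of Cebpb (chr2:167514415-167515918, plus strand), the early activator C/EBPβ, held 10, 25 and 12 peaks at days 0, 9 and 28. These numbers were above those of 97.1%, 98.1% and 93.7% of all genes, with ties counted as equal parts above and below. With equal numbers of top-scoring peaks per list the window held 10, 8 and 9. The peak on the start site scored 719.8 at day 0, 3100 at day 9 and 3223 at day 28, where a score is 10 times the −log10 p given by the peak caller and can be ranked only within its list. It stood at percentile 84.0 of the day 0 list, 97.4 of day 9 and 99.96 of day 28. A score of 3100 is shared by 192, 2699 and 1468 peaks of days 0, 9 and 28, so its rank is the middle of each tie. No score passed 3233 in any list, so ranks from 3100 upward rest on small differences in score.

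The merged region at this site spanned 2385 bp over the single exon of Cebpb and held no TGTGGT. Its neighbour, whose centre was 2.6 kb upstream, had a peak at percentile 14.7 at day 0, 85.4 at day 9 and 53.6 at day 28. A region 2.6 kb downstream stayed between percentiles 41.9 and 45.9. Of the 21 regions of the window 9 had peaks at all 3 time points and 10 at day 9 alone. All 10 of those seen at day 9 alone lay below the median of that list, with percentiles from 0.566 to 48.7.

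Part of the Cebpb window belongs to Tmem189, a gene transcribed away from Cebpb whose start lies inside it. The region at the Tmem189 start site, 28.1 kb upstream of Cebpb, had the highest day 0 score of the whole window (785, percentile 86.1) and stood at percentiles 89.4 and 88.4 at days 9 and 28. The other 6 regions assigned to Tmem189 lay in its exons and introns or upstream of it. In its intron 2, a region 39.5 kb upstream of Cebpb had peaks at all 3 time points, at percentiles 76.5, 75.3 and 82.6. That region carried TGTGGT at its centre, as did 4 weaker ones at 44.1, 22.7 and 13.3 kb upstream and 40.7 kb downstream, of which the one at 13.3 kb held 3 copies in 306 bp.

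Cebpd (chr16:15887379-15888559, plus strand), which encodes the other early activator C/EBPδ, had a high-ranking peak at its start, as Cebpb did, but fewer others around it than Cebpb. GENCODE M1 lists this intronless gene as a pseudogene, and its annotated start was used as its start site. The window held 4, 2 and 3 peaks, which was above 72.0%, 29.5% and 47.8% of all genes. The peak on the start site scored 2162 at day 0, 3100 at day 9 and 3100 at day 28. Its percentiles were 98.0, 97.4 and 97.8, so it ranked near the top of each list. The merged region held 2 copies of TGTGGT, neither within 50 bp of its centre.

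The only region of the 75 with a peak at day 0 alone (1.33%, against 5.60% of all regions) lay 20 kb upstream of Cebpd. It scored 627 (percentile 80.4) and held TGTGGT 4.5 bp from its centre. A weak region 1.9 kb downstream of the start, just beyond the gene end, had peaks at days 0 and 28 (percentiles 13.3 and 19.1) and not at day 9. It also carried the core at its centre. The remaining region, at percentiles 46.1, 65.4 and 62.1, lay on the start of Mzt2, 24.4 kb upstream.

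**Figure D3:**
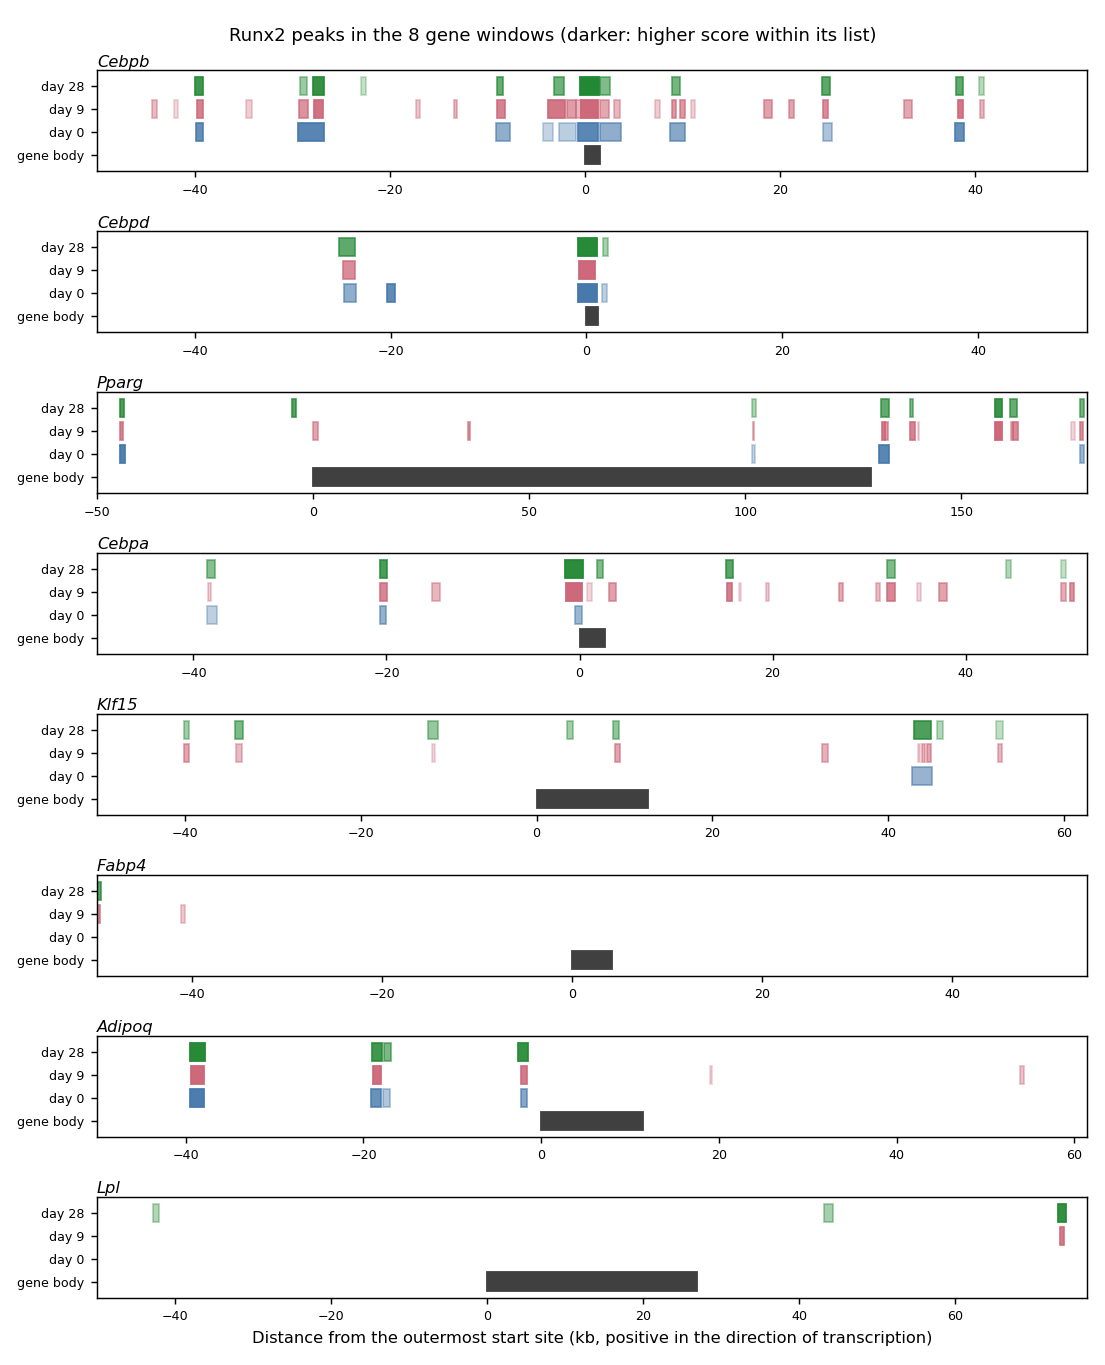
Runx2 peaks of day 0, day 9 and day 28 along the window of each gene, by distance in kb from its outermost start site in the direction of transcription, with the gene body as a dark bar and higher scores within a list drawn darker. Peaks cover the start sites of Cebpb, Cebpd and Cebpa at all 3 time points, and the gene bodies of Fabp4, Adipoq and Lpl hold none.

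The Pparg gene (chr6:115311239-115440419, plus strand) encodes the nuclear receptor PPARγ, the master regulator of the fat cell. Its window held 4, 13 and 8 peaks at days 0, 9 and 28. Per 100 kb these were 1.75, 5.67 and 3.49 peaks, since the gene is long and its window is 229181 bp wide. With equal numbers of top-scoring peaks per list the window held 4, 6 and 7. The density was at percentiles 52.5, 66.1 and 62.1 among all genes.

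Of the 2 annotated start sites of Pparg, the upstream one at position 115311239 had a peak at day 9 only. It scored 216, at percentile 42.8 of that list, and was lost when the lists were cut to equal length. At day 28 the nearest peak lay 3898 bp away, in a region 4.3 kb upstream of this start (percentile 68.5) that was listed at no other time point. The downstream start at position 115372084 had no peak within 24564 bp at day 9, and none within 40665 bp at day 0 or 40719 bp at day 28. Inside the gene there were 2 further regions. One in intron 2 had a day 9 peak at percentile 52.0 with TGTGGT at its centre, and one over exon 5 had peaks at all 3 time points, at percentiles 7.82, 35.6 and 15.4.

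The strongest Runx2 peaks of the Pparg window lay outside the gene. At day 9 a region 158.6 kb from the upstream start, beyond the 3′ end, scored 3100 (percentile 97.4). It scored 1426.5 at day 28 (percentile 85.3) and had no day 0 peak. The region (chr6:115469004-115470734) held 4 copies of TGTGGT over 1731 bp, none within 50 bp of its centre. At day 0 the strongest peak lay 44.1 kb upstream (score 968, percentile 90.2), and it ranked at 69.2 and 73.9 at days 9 and 28. Next to the 3′ end a region 132.2 kb from the start also had peaks at all 3 time points, at percentiles 85.2, 79.5 and 61.5.

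Cebpa (chr7:35904312-35906945, plus strand), which encodes the late factor C/EBPα, had 3, 16 and 8 peaks. This was above 61.2%, 90.9% and 82.4% of genes. With equal numbers of top-scoring peaks per list there were 3, 5 and 6. The peak at its start site scored 202 at day 0, 3100 at day 9 and 2691 at day 28. It stood at percentile 36.6 of the day 0 list, 97.4 of day 9 and 94.6 of day 28, ranks that come from lists of unequal length and are not a measure of change in occupancy. The day 0 peak was 706 bp wide and the day 9 peak 1668 bp. The start-site region spanned 1830 bp without a single TGTGGT.

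The region 20.3 kb upstream of Cebpa, whose central sequence is given above, held 3 copies of TGTGGT in 724 bp. It scored 229 at day 0, 598 at day 9 and 907 at day 28 (percentiles 42.4, 71.0 and 75.9), and its day 0 peak was the highest of the Cebpa window. A region 15.6 kb downstream was found at days 9 and 28 alone, at percentiles 78.1 and 66.8, with no copy within the 501 bp around its centre. Of the 18 regions 10 were seen at day 9 alone, at percentiles from 0.785 to 60.6. Regions at 16.6, 50.2 and 51.1 kb downstream also carried TGTGGT at their centres, and the last 2 of these lay nearer to the start of Slc7a10 than to that of Cebpa.

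Klf15 (chr6:90412570-90425232, plus strand) had 1, 9 and 8 peaks, of which 1, 0 and 2 were left with equal numbers of top-scoring peaks per list. All were of low to middle rank at days 0 and 9, the highest of day 9 being at percentile 44.8. At day 28 a peak lay 741 bp from the second of its start sites, in intron 1 (score 154, percentile 21.7), with TGTGGT at the region centre. The region in intron 2 had peaks at days 9 and 28, at percentiles 44.8 and 31.6. It held 2 copies at its centre and 3 in all.
Klf15 intron 2, first copy: gtcctctggcctTGTGGTtagcagatgctc
The stretch is chr6:90421643-90421672, shown with the core in capitals because its region centre is the closest to a TGTGGT of all 75. The highest score of days 0 and 28 belonged to a region 43.9 kb downstream, with peaks at all 3 time points at percentiles 40.6, 41.8 and 74.0. A region at the start of Ccdc37, 33.9 kb upstream, stood at percentiles 25.7 and 44.8 at days 9 and 28.

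The adipocyte products differed in how close their nearest Runx2 peaks lay, over 40 kb from the start for Fabp4 and Lpl and under 2 kb for Adipoq. With equal numbers of top-scoring peaks per list, Fabp4 kept 1 of its 2 day 9 peaks, Adipoq 3 of 5, and Lpl 1 of its 3 day 28 peaks. Fabp4 (chr3:10204347-10208576, minus strand), the fatty acid binding protein of fat cells, had no peak at day 0, 2 at day 9 and 1 at day 28. Both of its regions lay over 40 kb upstream in introns of the neighbouring gene Fabp12. The one 49.9 kb upstream, at the border of the window, scored 438 at day 9 (percentile 64.2) and 587 at day 28 (percentile 65.7). The other had a day 9 peak alone, at percentile 13.5.

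Lpl (chr8:71404390-71431347, plus strand), the lipoprotein lipase that frees fatty acids for uptake, had no peak at day 0, 1 at day 9 and 3 at day 28. The strongest region lay 73.7 kb downstream of the start, scored 991 at day 9 (percentile 80.4) and 2014 at day 28 (percentile 91.0), and held 2 copies of TGTGGT, each more than 100 bp from the centre of the region. The other regions of day 28 stood at percentiles 12.1 and 20.1.
Lpl downstream, first copy: ctgacggccagcTGTGGTttgtctctgctg
This copy lies at chr8:71477922-71477951 and is shown because its region is the strongest of the window.

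Adipoq (chr16:23146609-23158101, plus strand), which encodes the hormone adiponectin, had 4, 5 and 4 peaks. Its highest scores belonged to the starts of other genes. The region at the start of Eif4a2, a translation initiation factor gene 38.7 kb away, scored 1228 at day 0 and 3100 at days 9 and 28, and the one at Rfc4, a replication factor gene, stood at percentiles 73.6, 92.7 and 82.1. The region nearest to Adipoq was centred 2.1 kb upstream and had peaks at all 3 time points. It scored 288 at day 0, 1075 at day 9 and 1764 at day 28, at percentiles 52.7, 81.7 and 89.0. Its edge came to within 1580 bp of the first start site at day 0, 1593 bp at day 9 and 1493 bp at day 28.

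The 501 bp at the centre of this Adipoq region held 3 copies of TGTGGT, a number reached or passed by 9.14% of all regions. They also had a GC content of 40.3%, lower than that of most regions (percentile 3.44).

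**Figure D4:**
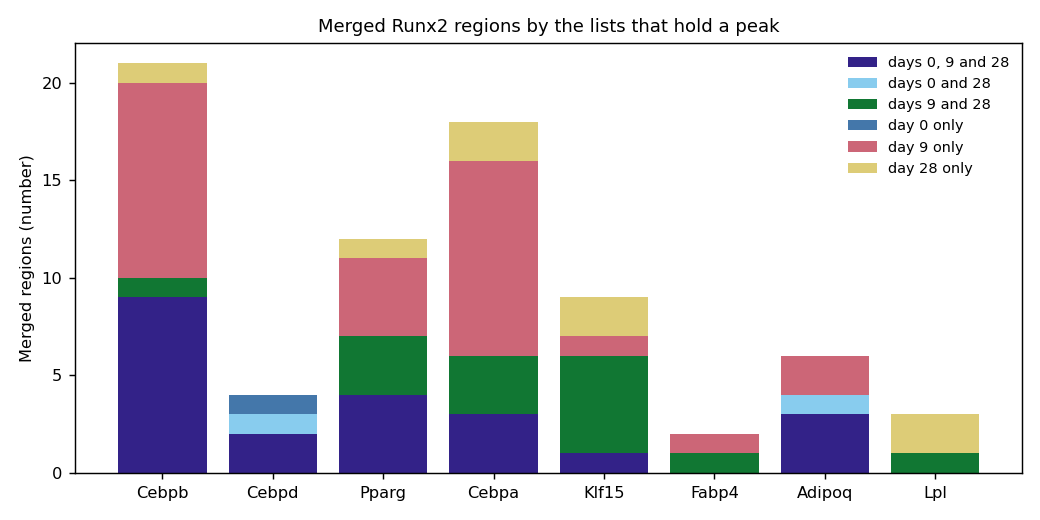
Number of merged Runx2 regions in the window of each gene (vertical axis), split by the days whose lists hold a peak in the region. Cebpb has the most regions found at all 3 time points (9), and the 10 day 9 regions of Cebpa outnumber its 3 of all time points.

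Of the 75 regions, 22 had peaks at all 3 time points (29.3%, exact binomial 95% interval 19.4 to 41.0%), as did 27.4% of all regions. Another 28 were found at day 9 alone (37.3% against 34.5% of all regions) and 14 at days 9 and 28 (18.7% against 21.1%). A further 8 were found at day 28 alone (10.7% against 7.59%) and 1 at day 0 alone (1.33% against 5.60%, interval 0.034 to 7.21%). The intervals cover counting error only. By their centres 36 regions were intergenic, 15 upstream (within 20 kb of a start), 11 intronic, 8 exonic, 3 in promoters and 2 near transcript ends. No such counts over all regions are given here, so these locations cannot be called particular to the 8 genes.

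The core TGTGGT, searched on both strands, lay within 50 bp of the centre of 15 of the 75 regions (20%, 95% interval 11.6 to 30.8%). The share over all regions was 24.2%. In flanks of the same width, 450 to 550 bp from the centre on both sides, it was 9.33% around the 75 regions and 7.36% around all regions. Counted at the centres of the peaks themselves, the shares were 19.2% of 26 at day 0, 20.5% of 73 at day 9 and 19.1% of 47 at day 28, against 16%, 25.3% and 20.9% of all peaks. The shares of the 75 regions and of all regions thus differed by less than the counting error. Over their whole length 62.7% of the 75 regions held at least 1 copy, a share that depends on region width and is not given for all regions. Within the 501 bp at the centre, 56% of the 75 regions and 53.4% of all regions held a copy.

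The motif TTGCNNAA, the form of site bound by C/EBP proteins, whose matches can share an end base with TGTGGT, was searched in the same way. It was found at the centre of 7 of the 75 regions (9.33%, 95% interval 3.84 to 18.3%) and in 3.23% of all regions. In the flanks the shares were 3.33% and 3.71%. The search was chosen after the data were seen, its interval covers counting error only, and the difference was not tested. These 7 regions lay in the windows of Cebpb (1), Pparg (3), Cebpa (1), Fabp4 (1) and Adipoq (1), and 1 of them, 51.1 kb downstream of Cebpa, also held TGTGGT at its centre.

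The regions at gene starts were rich in CpG dinucleotides. Of the 75 regions 12 reached to within 1 kb of a start site of any gene, and the 501 bp at their centres held a median of 32 CpG (range 4 to 89). The other 63 had a median of 8 (range 0 to 19), near the median of 7 over all regions. Cebpb had the highest value, with 89 CpG at its start site (percentile 99.9 of all regions). Of the 12 regions 8 had peaks at all 3 time points and 1 carried TGTGGT at its centre, whereas of the other 63 regions 14 had peaks at all 3 time points and 14 carried the core. All regions were not split in this way, so the contrast cannot be called particular to these windows. Over all regions, those with peaks at all 3 time points held a median of 16 CpG, against 7 for all.

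**Figure D5:**
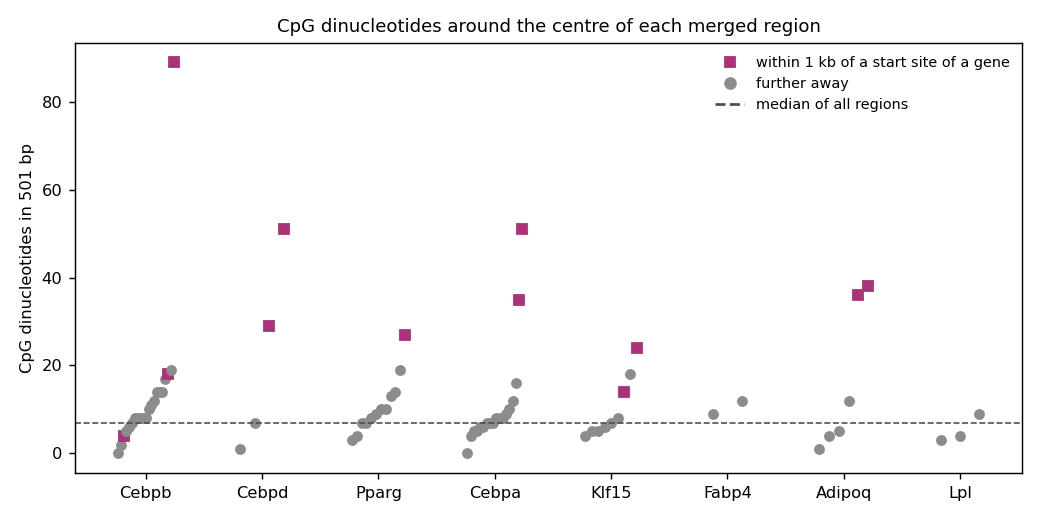
Number of CpG dinucleotides in the 501 bp around the centre of each merged region, by gene, with squares for regions within 1 kb of a start site of any gene and the dashed line at the median of all regions (7). The squares reach 89 at the Cebpb start site and the circles stay at 19 or below.

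The wider adipocyte programme was described with 45 further genes in 5 lists grouped by function, all of which had a peak in their window at day 9, as did 83.2% of all genes. A start-site peak was present in 27, 33 and 32 of them at days 0, 9 and 28 (60%, 73.3% and 71.1%), against 43.6%, 53.3% and 51.1% of all genes. The same background applies to each list below. The median number of peaks per window was 4, 10 and 7, against 2, 5 and 3 for all genes. These counts, and those of single genes below, are not corrected for window width. More peaks were listed at day 9 than at day 0 for 44 of the 45, against 71.9% of all genes. With equal numbers of top-scoring peaks this was 25 of the 45, against 29.8% of all genes.

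Among 10 regulators that promote adipogenesis, 8, 9 and 9 had a start-site peak at days 0, 9 and 28. Rxra, the dimerization partner of PPARγ, had the most peaks at day 9 (46, after 15 at day 0 and before 27 at day 28). It was followed by the preadipocyte factor gene Zfp423 (8, 44 and 29) and the phosphatidate phosphatase gene Lpin1 (6, 17 and 7). The windows of Rxra, Zfp423 and Lpin1 are 186518, 397786 and 154102 bp wide. Among 10 genes that restrain adipogenesis, 7, 9 and 9 had a start-site peak. The GATA factor gene Gata2 had 2, 13 and 4 peaks, the Kruppel-like factor gene Klf2 had 3, 19 and 16, and the Wnt ligand gene Wnt10b had 7, 19 and 10.

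Of the 4 paralogs of the C/EBP and PPAR families, 2 had a start-site peak at each time point. Ppard had 9, 38 and 21 peaks, Ppara 5, 16 and 9, and Cebpg 4, 10 and 9. The window of Cebpg overlaps that of Cebpa by 37211 bp, so that 2, 3 and 2 of these peaks were counted for both. Of 16 genes of lipid storage and glucose uptake, 9, 12 and 11 had a start-site peak. The lipid droplet gene Plin4 had 2, 20 and 7 peaks, the acyltransferase gene Agpat2 had 9, 17 and 9, and Dgat1, which makes triglycerides, had 8, 17 and 12. The lipase gene Pnpla2 tied with the last 2 at day 9 (7, 17 and 9).

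Of 5 adipokine genes 1 had a start-site peak, at every time point. Cfd, which encodes adipsin, had 9, 29 and 16 peaks in its window and none at its start. The hormone genes Lep and Retn had 9 each at day 9, again with none at the start. Fabp4, Adipoq and Lpl likewise had no peak within 1 kb of a start site, although the nearest peak of Adipoq came to within 1493 bp at day 28.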

How the data were processed

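Chromatin of MC3T3-E1 cells was immunoprecipitated with a Runx2 antibody and sequenced as single-end reads of 36 bases. The authors called bases with CASAVA 1.6, mapped reads to mm9 with Bowtie 0.12.8, pooled the 2 libraries of a time point and called peaks with MACS 1.4.1 at default settings, retaining those below a p-value of 1e-10. The score in the deposited lists is 10 times the negative log10 of that p-value, at least 100 in each list, and was ranked within a list only. The lists hold no read counts, and the read totals of the libraries, which differ between time points, were not used here. The input libraries were not analysed here.

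Peaks sharing at least 1 bp were merged over the lists. Genes, start sites and locations came from GENCODE M1, leaving out the mitochondrion, and sequence from NCBIM37, the same assembly. All protein-coding genes (22359) gave the background, and Cebpd, listed as a pseudogene, was added to the members. Intervals are exact (Clopper-Pearson, 95%). Promoters covered 1000 bp before and 150 bp after a start. The work was done in Python 3.11.15 with NumPy 2.4.6, SciPy 1.17.1 and, for plots, Matplotlib 3.10.9, and the procedures were tested on simulated data.

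The 8 genes and the lists were chosen with earlier results of these data known. Named were the 8 genes, genes whose start lies within 1 kb of a peak of a window or that hold a named region, the 3 genes of each list with the most day 9 peaks (ties by symbol), and, of the regions, those at start sites, those with the highest score of a gene in a list and those with TGTGGT at the centre. Some further regions were named after their values were seen, and the alternatives for the 45 genes and the search for TTGCNNAA were chosen after seeing the data. Alternatives covered the p-value threshold, list length, joining of peaks, window, overlap, start sites and motif.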

Additional observations from a re-analysis of the deposited data

How the results depend on the processing

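The 9 counts and shares of the 8 genes, and 4 counts of the 45 further genes under 2 of the settings, were recomputed with 1 choice changed at a time. With a p-value of 1e-50 the windows held 10, 19 and 20 peaks at days 0, 9 and 28, in 25 regions of which 9 had peaks at all 3 time points, and with 1e-20 they held 41 peaks at day 9, in 44 regions. With equal numbers of top-scoring peaks per list (25457) they held 26 peaks at day 9, in 36 regions, and 25 of the 45 further genes had more peaks at day 9 than at day 0; the shorter lists lower these counts by construction. Windows widened by 10 kb held 12, 24 and 16 peaks in 23 regions, 10 of them of all 3 time points, and windows widened by 100 kb held 58, 137 and 91 peaks in 145 regions, 46 of them of all 3 time points. TGTGGT lay in 62.7% of regions when sought over their whole length. The remaining 55 of 76 recomputed values stayed within 1.5 times the reported count or within the interval of the share, among them all those that changed the overlap, joined peaks closer than 500 bp, or altered the start sites. Of 168 recomputed counts of single genes, 72 moved by more than 1.5 times. The number of genes with a start-site peak was 2 to 4 for day 0, 3 to 5 for day 9 and 3 to 6 for day 28. No paired analysis was possible because each time point has 1 pooled list. Peaks too weak for the threshold of the authors, and any spread between the 2 libraries, cannot be seen in these lists.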
